A study of Mus musculus with 6 samples.

Results

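The 10 genes described here mark radial glia and neural stem cells: the transcription factors Sox2, Pax6 and Hopx, the intermediate filaments Vim and Nes, the lipid and glutamate handling genes Fabp7 and Slc1a3, and the matrix and surface genes Tnc, Ptprz1 and Prom1. They were chosen by name, with earlier results of these data known. All 10 were found among the 55367 rows of the gene count table, 31650 of which had a count. RNA-seq libraries, 3 WT and 3 Fmr1-KO, were made from cerebral cortex cells of C57BL/6J mice that were dissociated on postnatal day 1 (P1) and then cultured for 2 days. Fmr1-KO mice lack FMRP, the RNA-binding protein whose loss causes fragile X syndrome, and the WT libraries came from the same strain with no treatment. Cells of both genotypes were, by the study's methods, depleted of ACSA-2+ astrocytes and of myelin before plating. The allele, the sex of the pups and the number of pups behind each library are not given in the sources used here. Where libraries of a genotype share a litter or a culture, the P values below measure only the spread between these libraries.

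Radial glia are the stem cells of the developing cortex. They divide at the ventricle, send a long fiber to the surface that guides migrating neurons, and give rise to neurons directly or through Eomes-expressing intermediate progenitors, and around birth they turn to making astrocytes and other glia. Outer radial glia, which have left the ventricle, keep dividing further from it. Most of the 10 genes are also used by other cells: astrocytes express Slc1a3, Fabp7, Hopx and Sox2, oligodendrocyte precursors express Ptprz1 and Sox2, vascular and immune cells express Vim, and ependymal cells express Prom1.

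Libraries held 30348556 to 35126207 counts, and 16976 genes passed the filter on low counts. Pairs of libraries of the same genotype were further apart than counting error alone would put them (chi-square per degree of freedom from 2.19 to 3.73). Fmr1, the targeted gene, was at 118, 112 and 109.6 CPM (counts scaled to library size after TMM normalization) in WT and at 54.2, 61.4 and 56.7 CPM in Fmr1-KO, so each library was on the side its label requires. Fmr1 RNA remained in Fmr1-KO at 0.506 times its WT level, so these values separate the genotypes and do not show absence of the protein. The cultures are labelled cortical neurons, and they held glial RNA as well. Per kilobase of exon, the neuronal tubulin gene Tubb3 was at 585 ± 14.0 CPM (SD, n = 3) in WT and the astrocyte filament gene Gfap at 628 ± 15.9 CPM (SD, n = 3).

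In Fmr1-KO relative to WT, 6 of the 10 genes were higher, 1 was lower and 3 did not pass the threshold, an adjusted P under 0.05 by edgeR's quasi-likelihood test. Prom1 and Pax6 rose most, Nes, Vim, Tnc and Ptprz1 rose by smaller amounts, and Hopx fell. Sox2, Fabp7 and Slc1a3 were not called. Of all genes tested, 42.6% were called, 20.7% higher and 21.9% lower. Among the 7792 genes whose mean level lay in the range of the 10 genes, 1847 were called higher and 2178 lower. The 6 higher genes also had all 3 Fmr1-KO libraries above all 3 WT libraries, which 25.4% of all tested genes had, and Hopx had them all below, as did 26.3% (51.7% in either direction). The median log2 fold-change was 0.13 for the 10 genes and 0.01 for all tested genes. The summed level of the 10 genes was 4598 ± 54.0 CPM in WT and 5053 ± 59.5 CPM in Fmr1-KO (SD, n = 3 per genotype). These are bulk libraries, in which fewer cells of a type and less RNA per cell cannot be told apart.

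**Figure D1:**
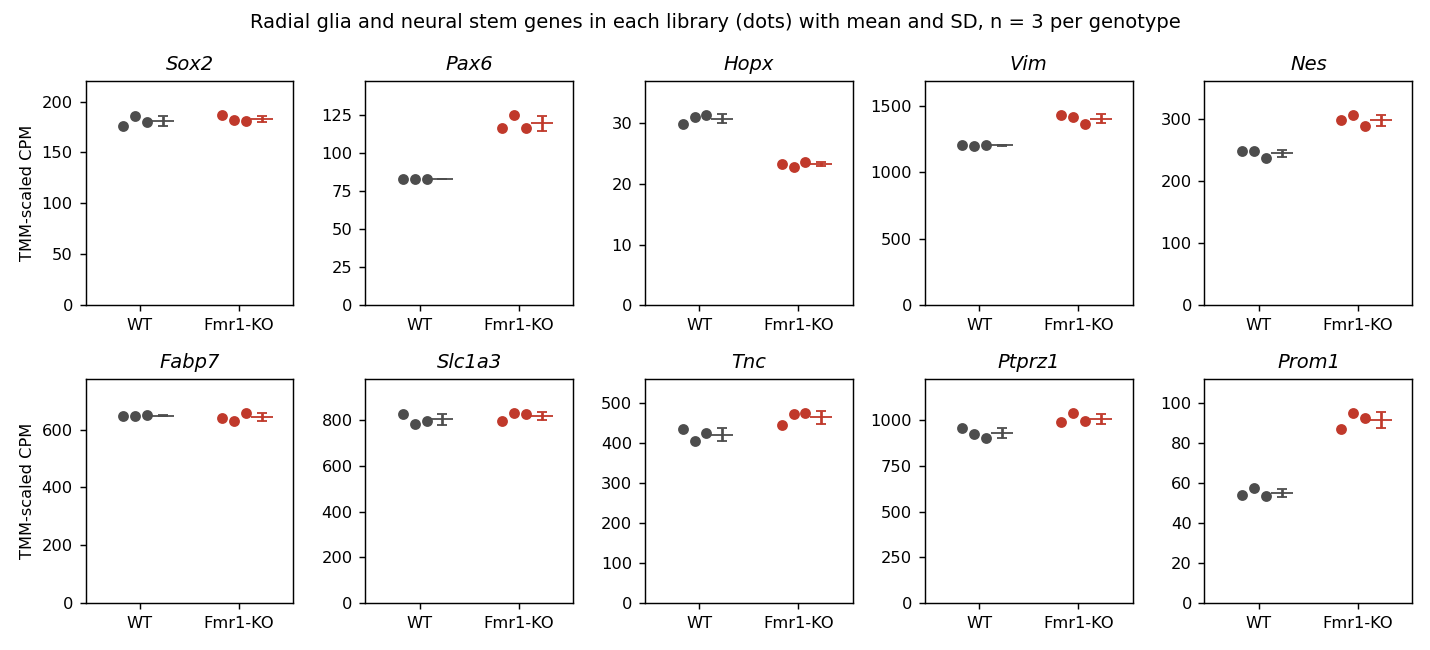
TMM-scaled CPM (vertical axis, from 0) of each gene in the 3 WT (grey) and 3 Fmr1-KO (red) libraries. Each dot is a library, and the bar beside it gives the mean and SD. The genotypes do not overlap for Pax6, Hopx, Vim, Nes, Tnc, Ptprz1 and Prom1, and they overlap for Sox2, Fabp7 and Slc1a3.

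The 3 transcription factors moved in 3 different ways. Sox2, an HMG-box factor that maintains the neural stem state, is a gene of 1 exon at chr3:34650405-34652461 on the plus strand (GRCm38). It was at 176, 186 and 180.2 CPM in WT and at 187, 182 and 181 CPM in Fmr1-KO. The libraries of both genotypes were interleaved. By edgeR its log2 fold-change of 0.02 (SE 0.03) had an adjusted P of 0.694, and the 95% interval of the change was -3.28% to 5.95%, so larger changes lie outside it.

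Pax6, a paired-box and homeodomain factor that drives radial glia toward neurogenesis, lies at chr2:105668900-105697364 on the plus strand. It was at 82.7, 82.8 and 82.8 CPM in WT and at 116, 125 and 116 CPM in Fmr1-KO. Every Fmr1-KO library was well above the WT libraries. The 3 WT values lie closer together than their 2739 to 2875 counts would give by counting error alone, so the SD in WT understates the error, while the fit shares information on spread across genes. Pax6 rose 1.44-fold, with a log2 fold-change of 0.52 (SE 0.04, 95% interval 0.45 to 0.60, adjusted P 1.38e-10 by edgeR).

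Hopx, a small homeodomain protein that does not bind DNA itself and marks outer radial glia, quiescent stem cells and astrocytes, lies at chr5:77086988-77115121 on the minus strand. It was at 29.9, 31.0 and 31.3 CPM in WT and at 23.3, 22.8 and 23.6 CPM in Fmr1-KO. All 3 Fmr1-KO libraries were below all 3 WT libraries, and the spread within a genotype was small beside the gap. Its level in Fmr1-KO was 0.756 times that in WT, a log2 fold-change of -0.40 (SE 0.05, 95% interval -0.51 to -0.30, adjusted P 1.13e-06 by edgeR). An antisense gene, Hopxos, covers 27.2% of the exon bases of Hopx on the other strand. Counting used the strand, and Hopxos had 27 counts in all 6 libraries together.

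The opposite movement of Pax6 and Hopx can be read within each library, where no scaling enters. The ratio of Pax6 to Hopx counts was 2.76, 2.67 and 2.64 in WT and 4.99, 5.45 and 4.94 in Fmr1-KO, so its mean in Fmr1-KO was 1.91 times that in WT. Relative to Sox2 counts, Pax6 stood at 0.470, 0.445 and 0.459 in WT and at 0.624, 0.686 and 0.644 in Fmr1-KO. Hopx stood at 0.1699, 0.1668 and 0.1738 of the Sox2 counts in WT and at 0.1249, 0.1258 and 0.1303 in Fmr1-KO. In none of these 3 ratios did the genotypes overlap.

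The bases just before a start of Pax6, Nes and Hopx are shown because these genes carry both directions of change. No annotated exon of the same gene covers these stretches, and exons of other genes were not checked. They are the upstream parts of RefSeq promoter windows on GRCm38.p6, 5′ to 3′ on the strand of the gene, at chr2:105668646-105668895 (plus), chr3:87970843-87971077 (plus) and chr5:77115124-77115373 (minus). Capitals mark CCAAT or its reverse complement ATTGG.
Pax6: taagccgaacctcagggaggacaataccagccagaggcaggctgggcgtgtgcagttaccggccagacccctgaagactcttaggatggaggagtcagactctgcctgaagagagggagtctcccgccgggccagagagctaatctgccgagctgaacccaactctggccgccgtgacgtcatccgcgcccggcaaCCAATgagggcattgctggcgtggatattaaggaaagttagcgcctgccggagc
Nes: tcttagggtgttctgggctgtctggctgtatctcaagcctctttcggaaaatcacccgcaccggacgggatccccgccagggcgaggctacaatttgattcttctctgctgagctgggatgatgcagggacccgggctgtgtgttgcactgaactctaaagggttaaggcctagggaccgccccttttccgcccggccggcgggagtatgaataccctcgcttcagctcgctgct
Hopx: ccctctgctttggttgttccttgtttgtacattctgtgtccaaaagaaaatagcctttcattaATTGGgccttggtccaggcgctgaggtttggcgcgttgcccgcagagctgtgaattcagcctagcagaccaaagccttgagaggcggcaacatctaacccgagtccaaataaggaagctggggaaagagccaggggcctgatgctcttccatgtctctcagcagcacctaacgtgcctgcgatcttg

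All 10 genes had a RefSeq promoter window (250 bases before to 50 after a start), 14 windows in all. The windows of Tnc overlap each other, so letters in their shared bases count in each. The letters TGGGAA, part of the site bound by the Notch effector RBPJ, were found on either strand in 4 of the 14 windows, those of Fabp7, Prom1 and Tnc, and in 25.6% of 32851 windows of all genes (chromosome 18 left out). The SOX letters ACAAAG were in 2 windows, of Sox2 and Pax6, and in 18.7% of all windows. CCAAT was in 8 windows of 7 genes and in 37.4% of all windows, and TATAAA in 4 windows of Slc1a3, Tnc and Vim and in 13.6% of all windows. The E2F letters GCGGGAA were in 0 of the 14 windows and in 4.6% of all windows, and no stretch can match both these and TGGGAA. The CCAAT letters were thus found both for Pax6, which rose, and for Hopx, which fell, and the one window of Nes held none of the letters searched.

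The filament genes rose together. Vim encodes vimentin, the main intermediate filament of radial glia and of many non-neuronal cells, and lies at chr2:13573927-13582826 on the plus strand. It had the most counts of the 10 genes, at 1201, 1200.1 and 1207 CPM in WT and 1428, 1415 and 1363 CPM in Fmr1-KO. All Fmr1-KO libraries were higher, by a mean of 1.17-fold (log2 fold-change 0.22, SE 0.03, 95% interval 0.16 to 0.28, adjusted P 1.20e-06 by edgeR). Nes encodes nestin, the classical neural stem cell filament that assembles with vimentin, and lies at chr3:87971078-87980451 on the plus strand. It was at 248, 248 and 238 CPM in WT and at 299, 306 and 289 CPM in Fmr1-KO. Its libraries did not overlap either, and it rose 1.22-fold (log2 fold-change 0.28, SE 0.03, 95% interval 0.22 to 0.35, adjusted P 1.87e-07 by edgeR). The ratio of Nes to Vim counts was 0.204 ± 0.00535 in WT and 0.213 ± 0.00365 in Fmr1-KO (SD, n = 3 per genotype). The 3 Fmr1-KO ratios, from 0.2092 to 0.2165, lay just above the 3 WT ratios, from 0.1973 to 0.2066.

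The genes of lipid and glutamate handling did not pass the threshold. Fabp7, the brain lipid binding protein that carries fatty acids in radial glia, lies at chr10:57784881-57788450 on the plus strand. It was at 648, 647 and 650.2 CPM in WT and at 642, 632 and 658 CPM in Fmr1-KO. One Fmr1-KO library was above the WT libraries and the other two were below them. By edgeR the log2 fold-change of Fabp7 was -0.01 (SE 0.03), the adjusted P was 0.804 and the 95% interval was -4.59% to 3.36%. Slc1a3, the glutamate transporter GLAST of radial glia and astrocytes, lies at chr15:8634124-8710764 on the minus strand. It was at 829, 786 and 797 CPM in WT and at 799, 832 and 829 CPM in Fmr1-KO, with both genotypes spread over the same range. By edgeR the log2 fold-change of Slc1a3 was 0.03 (SE 0.03), the adjusted P was 0.473 and the 95% interval was -2.27% to 6.45%. Both genes had at least 19340 counts in every library, and their intervals exclude changes of the size seen for Pax6, Nes or Hopx.

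Among the matrix and surface genes, the largest rise was that of Prom1. Prom1 encodes prominin-1 (CD133), a membrane protein of the apical protrusions and cilia of neural stem cells and of ependymal cells, and lies at chr5:43993620-44102032 on the minus strand. It was at 54.1, 57.4 and 53.6 CPM in WT and at 87.1, 95.2 and 92.4 CPM in Fmr1-KO. The lowest Fmr1-KO library was far above the highest WT library. Prom1 rose 1.66-fold, with a log2 fold-change of 0.73 (SE 0.04, 95% interval 0.65 to 0.82, adjusted P 8.09e-12 by edgeR). By absolute log2 fold-change it exceeded 93.7% of all tested genes, and Pax6 exceeded 87.3%.

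Tnc encodes tenascin-C, a matrix glycoprotein of the stem cell niche, and lies at chr4:63959785-64047015 on the minus strand. It was at 435, 405 and 424 CPM in WT and at 444, 472 and 475 CPM in Fmr1-KO. The genotypes did not overlap, though the highest WT library was close to the lowest Fmr1-KO library. Tnc rose 1.10-fold (log2 fold-change 0.14, SE 0.03, 95% interval 0.07 to 0.21, adjusted P 0.00181 by edgeR). Ptprz1, a receptor tyrosine phosphatase that binds tenascin-C and the growth factors pleiotrophin and midkine, lies at chr6:22875502-23052916 on the plus strand. It was at 956, 926 and 900.4 CPM in WT and at 989, 1039 and 996 CPM in Fmr1-KO. Here too the gap between genotypes was narrow, with a rise of 1.09-fold (log2 fold-change 0.12, SE 0.03, 95% interval 0.06 to 0.18, adjusted P 0.00281 by edgeR). By absolute log2 fold-change, Tnc and Ptprz1 exceeded 46.5% and 41.7% of all tested genes, so their changes were ordinary in size for these libraries. When a fold change above 1.2 was required, Prom1 and Pax6 alone were called higher and Hopx was called lower, with 5.2% and 7.89% of all tested genes called higher and lower by that rule.

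**Figure D2:**
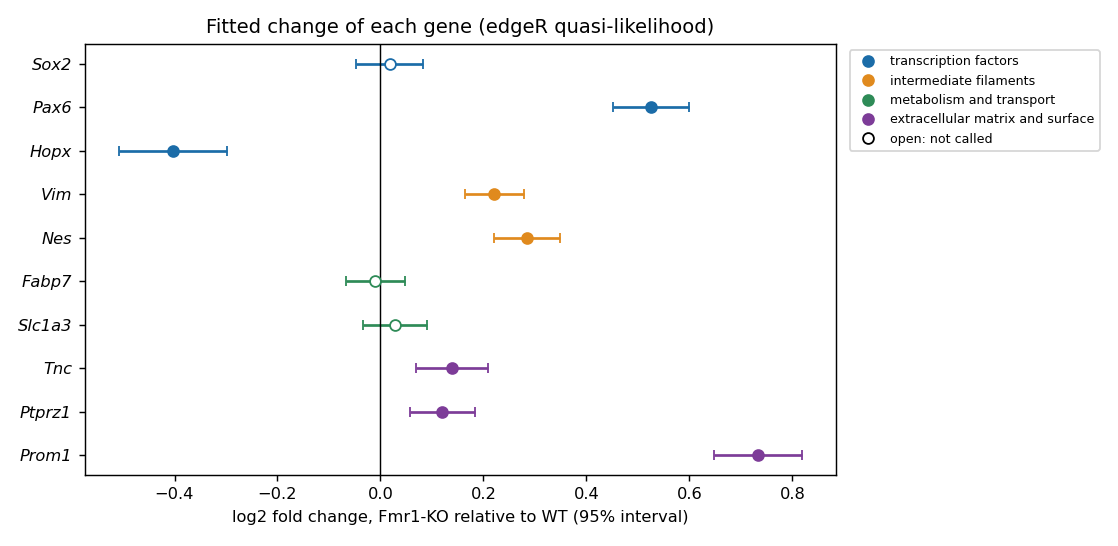
Log2 fold-change of each gene in Fmr1-KO relative to WT (horizontal axis), with 95% intervals from the edgeR fit over all genes, where colors give the role and open circles are genes not called. Prom1 (0.73) and Pax6 (0.52) lie far to the right, Hopx (-0.40) to the left, and the intervals of Sox2, Fabp7 and Slc1a3 include 0.

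Per kilobase of exon, the levels of the 10 genes covered a wide range. In WT the order was Fabp7 (519 CPM per kilobase), Vim (254), Slc1a3 (94.1), Sox2 (87.9), Ptprz1 (65.1), Tnc (54.2), Nes (38.2), Hopx (20.3), Prom1 (7.68) and Pax6 (7.08). No neighbours in this order overlapped in WT, although Slc1a3, from 92.0 to 97.1, came close to Sox2, from 85.6 to 90.5. Lengths are of all annotated exons joined, so a gene with many isoforms, such as Pax6 at 11694 bases, is placed lower than its main mRNA would be. In Fmr1-KO the order of levels was the same. Replicates were tight: the coefficient of variation of the 10 genes in CPM was at most 3.74% in WT and 4.48% in Fmr1-KO.

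The genes whose log2 CPM followed each of the 10 most closely were sought among the 10763 genes that averaged 10 CPM or more, by Pearson's r over the 6 libraries, which fall into 2 genotypes. For Prom1 these were Cdc45 (r = 0.9995, log2 fold-change 0.71), Cxcr4 and Lin9. Those for Pax6 were Tctn1, Mfap4 and Traf1, for Nes they were Cdh24, Rcbtb2 and Anxa3, and for Vim they included Kif24 and Ccdc40. The genes most like Hopx were Lrrtm1, Pld3 and Bex2, with log2 fold-changes of -0.52, -0.38 and -0.28. An r above 0.9 was shared by 1737 genes with Prom1, 1757 with Pax6 and 2167 with Hopx. Any pair of genes reaches that value when both differ by genotype in the same direction with little spread. For Sox2, Fabp7 and Slc1a3 the numbers were 37, 37 and 40. None of the 10 genes is among the 1027 names the study lists as targets of nonsense-mediated mRNA decay (NMD) in N2A cells.

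Other genes of the radial glia program were read from lists written from general knowledge, with earlier results of these data known. Of 57 such genes, all tested, 30 were higher, 12 were lower and the median log2 fold-change was 0.13. List counts here and below stand beside 20.7% of all tested genes called higher and 21.9% called lower. Of 18 progenitor transcription factors, 13 were higher and 2 lower, with a median of 0.22. Sox1, a close relative of Sox2, rose by 0.45 on the log2 scale (edgeR, adjusted P 1.13e-09), and Id1 and Id3, inhibitors of bHLH factors that respond to BMP, had log2 fold-changes of -0.79 and -0.91 (adjusted P 1.72e-08 and 1.50e-11 by edgeR). Of 20 surface, metabolic and RNA-binding genes, 12 were higher and 3 lower, with a median of 0.18. Veph1, the serine synthesis enzyme gene Phgdh and Cd24a were higher (log2 fold-changes 0.60, 0.37 and 0.33), and Lrig1, which restrains growth factor receptors, was lower (-0.33), and each passed the threshold by edgeR. Of 10 Notch receptors and effectors, 4 were higher and 2 lower. Nrarp and Notch2 had log2 fold-changes of 0.44 and 0.35, and Hey1 and Dtx1 of -0.35 and -0.20, all past the threshold by edgeR. Hes1 and Hes5, the best known Notch effectors in radial glia, were not called, with log2 fold-changes of 0.20 and -0.12, and are named here after their values were seen.

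Outer radial glia genes other than Hopx, Tnc and Ptprz1 were mostly lower. Of 9 such genes, 5 were lower and 1, Itgb5, was higher, with a median log2 fold-change of -0.13. The count of lower genes was 3 with a stricter filter on low counts and 4 when scaled by library totals. Gpx3 and Moxd1 were at low levels, with means of 5.76 and 5.97 CPM in WT. Gpx3, Moxd1, Lifr and Lgals3bp fell by log2 fold-changes of -0.77, -0.56, -0.43 and -0.35, each past the threshold by edgeR, and Lifr, the receptor of leukemia inhibitory factor, went from 40.2 ± 1.93 to 29.8 ± 0.166 CPM (SD, n = 3 per genotype). Stat3, on the same pathway, fell by 0.11 on the log2 scale (adjusted P 0.0127 by edgeR). Hopx thus moved in the direction of most of these genes, and Tnc and Ptprz1 in the other. The call of Itgb5 (adjusted P 0.0343 by edgeR, log2 fold-change 0.11) was lost in DESeq2 and when WT replicate 2 or 3 or Fmr1-KO replicate 1 or 3 was left out, each of which left 0 genes of this list called higher. Itgb5, Stat3 and Il6st are named after their values were seen.

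Ligands, partners and relatives of the encoded proteins formed a list of 18 genes, of which 17 were tested, 10 were lower and 1 was higher. The higher one was Mdk, which encodes the PTPRZ1 ligand midkine and was at 86.4 ± 2.38 CPM in WT and 135 ± 7.98 CPM in Fmr1-KO (SD, n = 3 per genotype, adjusted P 4.26e-11 by edgeR), a log2 fold-change of 0.64. Ptn, which encodes pleiotrophin, its other ligand, was at 552 ± 5.07 CPM in WT and 551 ± 8.70 CPM in Fmr1-KO (SD, n = 3 per genotype, adjusted P 0.944 by edgeR). Cntn1, a neuronal adhesion molecule that binds PTPRZ1, fell by 0.87 on the log2 scale, and Nrcam, another, by 0.48, both past the threshold by edgeR. Mdk, Ptn and Nrcam are named after their values were seen.

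**Figure D3:**
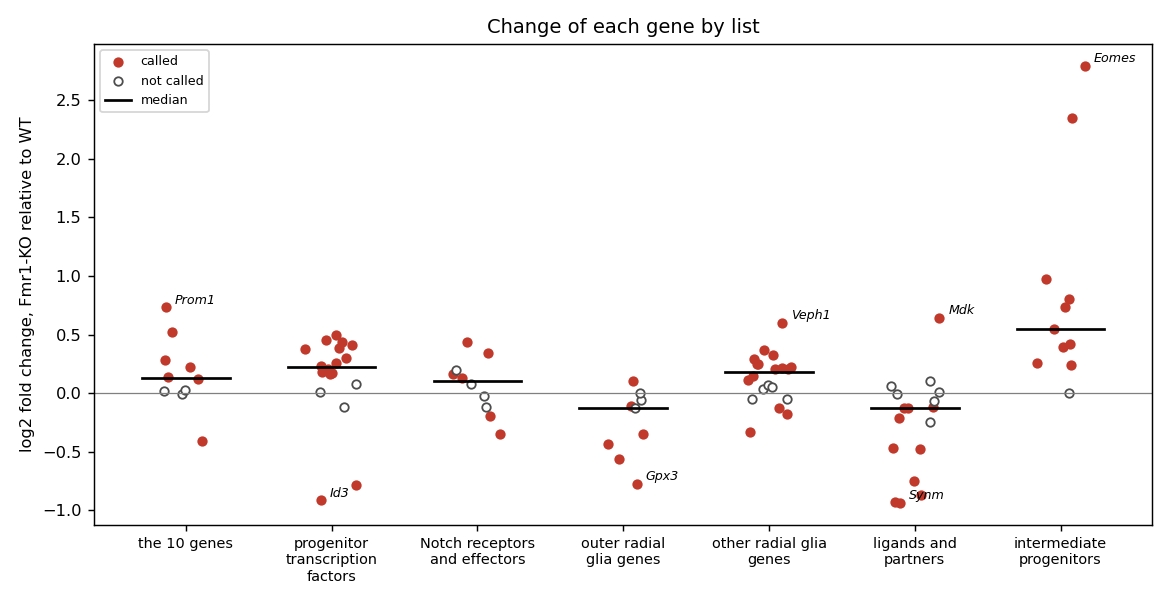
Log2 fold-change in Fmr1-KO relative to WT (vertical axis) for the 10 genes and for lists of related genes. Each dot is a gene, filled where called, lines are medians, and the highest or lowest gene of a list is named where it lies far from 0. Of the lists drawn here, intermediate progenitor genes have the highest median (0.55), and outer radial glia genes and ligands and partners have medians below 0 (both -0.13).

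Markers of other cells in the culture also differed between genotypes, some lists mostly higher and others mostly lower. Their part in the changes of the 10 genes was not tested. Genes of cycling cells were higher in 18 of 18 cases, and their summed level went from between 903 and 952 CPM in WT to between 1522 and 1578 CPM in Fmr1-KO. Intermediate progenitor genes were higher in 10 of 11 tested cases, with a summed level of 471 to 513 CPM in WT and 784 to 828 CPM in Fmr1-KO. Neurog1 had 6 counts in all and was not tested. Eomes was at 10.5 ± 2.25 CPM in WT and 72.8 ± 7.88 CPM in Fmr1-KO (SD, n = 3 per genotype), against 82.8 ± 0.0643 and 119 ± 4.68 CPM for Pax6, which precedes it in the lineage. Insm1 and Igfbpl1 also rose, by log2 fold-changes of 0.98 and 0.80, past the threshold by edgeR.

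For Hopx, the astrocyte list is the nearest neighbour, and it was split. Of its 14 genes, 5 were higher and 8 lower, with a median of -0.11, and their summed level was 7172 to 7323 CPM in WT and 6542 to 6999.7 CPM in Fmr1-KO. S100b, Sparcl1 and Aqp4 fell by log2 fold-changes of -0.94, -0.72 and -0.72, and Clu rose by 0.42, each past the threshold by edgeR. Atp1b2, which encodes the ACSA-2 antigen used for depletion, was at 658 ± 16.8 CPM in WT and 618 ± 14.1 CPM in Fmr1-KO (SD, n = 3 per genotype, adjusted P 0.0183 by edgeR), a log2 fold-change of -0.09, and is named after its values were seen. Slc1a3 and Fabp7, which astrocytes share with radial glia, were not called. The part of astrocytes in the fall of Hopx was not tested.

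For Ptprz1 and Sox2, oligodendrocyte precursors are a second source, and 8 of the 9 markers of these cells were lower and 0 higher, their summed level going from 1609 to 1619 CPM in WT to between 1208 and 1225 CPM in Fmr1-KO. All 9 markers of oligodendrocytes were lower, and their summed level fell from between 1993 and 2228 CPM to between 1100.2 and 1197 CPM. For Vim, 4 of 12 mural cell and fibroblast markers were higher and 6 lower, and the summed level of this list was 849.9 to 936 CPM in WT and 1096 to 1139.6 CPM in Fmr1-KO. Acta2 and Tagln, genes of contractile cells, rose by log2 fold-changes of 0.87 and 0.69, and the pericyte genes Abcc9 and Rgs5 had log2 fold-changes of -1.14 and -0.91, each past the threshold by edgeR. The median of the list was -0.28 (-0.17 with a stricter filter on low counts), so its summed level and its median moved in opposite directions. Of 6 tested endothelial markers, 3 were higher and 1 lower, at a summed level of 16.4 to 20.2 CPM in WT and 28.9 to 30.1 CPM in Fmr1-KO, while Cldn5, Tek and Ly6c1 had too few counts to test. Most of that difference was Kdr, at 7.27 ± 0.784 CPM in WT and 17.1 ± 1.24 CPM in Fmr1-KO (SD, n = 3 per genotype). The 1 lower gene, Cdh5 (log2 fold-change -0.66), was not called without WT replicate 1, and the median of this list was 0.38, or 0.07 without WT replicate 2. Of 11 microglia markers, 10 were lower, with a summed level of 315 to 339 CPM in WT and 189.8 to 213 CPM in Fmr1-KO.

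For Prom1, 4 of 8 ependymal markers were higher and 1 lower, with summed levels of 188 to 189 CPM in WT and 243 to 259 CPM in Fmr1-KO. Foxj1, the regulator of motile cilia, was at 116 ± 3.73 CPM in WT and 171 ± 5.49 CPM in Fmr1-KO (SD, n = 3 per genotype, adjusted P 4.21e-11 by edgeR), a log2 fold-change of 0.55. Tmem212 fell by 0.49 on the log2 scale (adjusted P 0.00230 by edgeR). For Pax6, which olfactory bulb interneuron precursors also express, 6 of 8 subpallial and olfactory progenitor genes were higher and 0 lower, with summed levels of 528 to 545 CPM in WT and 673 to 747 CPM in Fmr1-KO. Dlx2 and Dlx1 rose by log2 fold-changes of 0.59 and 0.46, and Gsx2 by 0.88, each past the threshold by edgeR. Neuron markers were lower in 11 of 12 cases. Their summed level, which mixes markers of mature and immature neurons, was 5397 to 5534 CPM in WT and 4490 to 4707 CPM in Fmr1-KO. Nefl, a gene of mature neurons, had a log2 fold-change of -1.90, past the threshold by edgeR. A link between these falls and the rise of Pax6, Nes, Vim and Prom1 was not tested. The 1 neuron marker called higher was Dcx, of immature neurons (adjusted P 0.0312 by edgeR, log2 fold-change 0.08). That call was lost when WT replicate 1 or 3 or Fmr1-KO replicate 3 was left out, and Dcx is named after its values were seen.

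**Figure D4:**
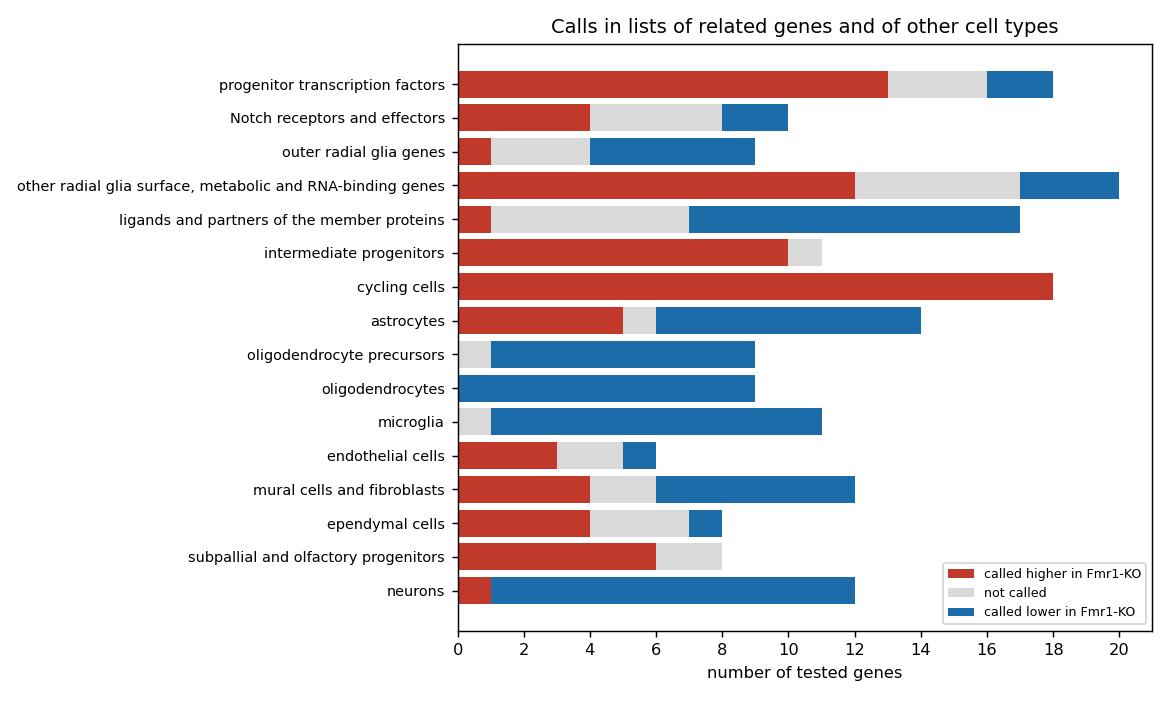
Number of tested genes (horizontal axis) called higher (red), not called (grey) or called lower (blue) in Fmr1-KO relative to WT in each list. Cycling cell genes were all called higher (18 of 18) and oligodendrocyte genes all lower (9 of 9), while the astrocyte list was split (5 higher, 8 lower).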

How the data were processed

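RNA-seq of 3 WT and 3 Fmr1-KO libraries was used. The authors deposited raw counts per gene name without normalization. By their methods, single-end reads from stranded poly(A) libraries were trimmed with FastP, aligned with STAR (2.7.6a in the submitters' processing notes) to GRCm38.p6, and counted over exons by featureCounts, reverse strand. Isoforms and pre-mRNA are not separated.

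Here, counts were filtered with filterByExpr, scaled by TMM and tested with edgeR 4.0.16 (glmQLFit, glmQLFTest, 2-sided, R 4.3.3), in a model of genotype alone. P values were adjusted by Benjamini-Hochberg over 16976 genes, and calls were made under 0.05. SE is the log2 fold-change divided by the square root of F, and 95% intervals use the degrees of freedom of the fit. Exon lengths and coordinates came from GENCODE M21 (GRCm38), promoters from RefSeq (GRCm38.p6). The fit was tested on simulated data. The labels name no batch.

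The genes and lists were chosen with earlier results of these data known. Genes named are the 10, Fmr1, up to 4 called genes per list with the largest change, no overlap between genotypes and a mean of 1 CPM or more, and the 3 closest profiles per gene, except where the text says that a gene was named after its values were seen. Some genes that this rule names are not reported here. The study's NMD target list was used for names only. Alternatives were DESeq2 1.42.0, RLE and upper-quartile scaling, library totals, no filter, a stricter filter (means of 10 counts and 5 CPM), a replicate block, a minimum fold change of 1.2, and leaving out each library.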

Additional observations from a re-analysis of the deposited data

How the results depend on the processing

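The same 6 genes were called higher and Hopx lower under 13 of the 14 alternatives. With a minimum fold change of 1.2, a stricter test, 2 of the 10 were higher, and 883 of all genes were higher and 1340 lower. The values that changed sign were near 0 and never called: Fabp7 was 0.0177 when scaled by library totals and 0.000490 by the upper quartile, and across the 6 fits that each left out a library it ran from -0.0270 to 0.00304 and Sox2 from -0.00174 (without WT replicate 1) to 0.0379, with Fabp7 above 0 without Fmr1-KO replicate 2. In those fits Tnc ran from 0.11 to 0.17 and Ptprz1 from 0.10 to 0.14, with adjusted P of at most 0.0152 and 0.0289 by edgeR. No scaling moved the median of all genes by more than 0.0278. Replicate numbers did not pair the libraries (correlations of deviations -0.15, 0.14 and 0.07); with a replicate block 3488 genes were higher and 3694 lower, and the 10 genes kept 6 higher and 1 lower. Library totals gave 4207 higher and 3212 lower genes. Of 448 values recomputed for counts in gene lists, 29 moved by over 1.5 times, 17 of them with the minimum fold change. The least counts of any of the 10 genes in a library were 699, for Hopx. Hopx also had the largest SE of the 10, 0.05 against 0.03 for Vim.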

Other observations

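Relatives of the 10 genes within the same families had other values, and the differences between relatives were not tested. Slc1a2, Fabp5, Gfap and Sox2ot are named after their values were seen. Among glutamate transporters, Slc1a3 had a log2 fold-change of 0.03, the astrocyte transporter gene Slc1a2 of -0.13 (adjusted P 0.00332 by edgeR) and the neuronal transporter gene Slc1a1 of -0.75 (adjusted P 7.77e-13 by edgeR). Among fatty acid binding proteins, Fabp7 was at -0.01 and Fabp5 at -0.07, neither called, while Fabp3, the form of heart and muscle, was lower (log2 fold-change -0.93, adjusted P 1.67e-08 by edgeR). Among intermediate filaments of glia, Vim and Nes were higher, and Gfap (-0.21, adjusted P 0.000122 by edgeR) and Synm (-0.93, adjusted P 6.51e-09 by edgeR), which encodes a filament that assembles with vimentin, were lower.

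Sox2 lies inside Sox2ot, a non-coding gene on the same strand that shares no exon bases with it in the annotation. Sox2ot was at 73.6, 75.7 and 72.8 CPM in WT and at 78.7, 79.9 and 79.2 CPM in Fmr1-KO, with no overlap between genotypes (log2 fold-change 0.10, SE 0.03, adjusted P 0.0268 by edgeR), while Sox2 was not called.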
